A study of Mus musculus with 6 samples.

Results

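The translation initiation and elongation factors are the proteins that start protein synthesis on an mRNA and then carry the ribosome along it. Their genes were taken by symbol, as every row of the deposited expression table beginning with Eif and a digit from 1 to 6 or with Eef and the digit 1 or 2. The kinases of eIF2 (symbols beginning with Eif2ak) and 4 rows with a pseudogene symbol were left out. This gave 60 of the 38926 genes in the table. The rule used symbols alone, but it was set with earlier results of these data known. One of the rows, Eif2c5, carries an Argonaute-family name and is no translation factor.

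The RNA came from LSK cells, the bone marrow fraction without lineage markers and with Sca-1 and Kit on the surface, in which haematopoietic stem cells and multipotent progenitors are found. The donors were wild-type C57BL/6 mice aged 8 to 12 weeks, and the cells came from femur and tibia. One group of 3 libraries was from mice that received haloperidol, a dopamine receptor blocker used as an antipsychotic, by injection on each of 3 days in a row. The other group of 3 libraries was from mice given the solvent DMSO in the same way, and both groups of cells stayed in drug or solvent through the sort. The comparison therefore covers injection and exposure during sorting together. Whether the libraries of a group came from separate mice is not stated, so the spread behind each p-value is that between libraries and could be technical. No date of sorting or sequencing is given either, and any batch running parallel to the treatment cannot be told apart from it.

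Each library held 8523660 to 8969024 reads assigned to genes, so that a gene without a read could still hold 0.334 to 0.352 RPM (reads scaled to library size), counting error alone considered. Principal component 1, with 51.6% of the variance, placed the DMSO libraries between -17.8 and -16.7 and the haloperidol libraries between 14.1 and 20.8. The gate genes were present in both groups, with Kit at 87.8 ± 7.38 FPKM in DMSO and 81.0 ± 9.78 FPKM with haloperidol and Ly6a, the gene of Sca-1, at 136 ± 10.2 and 138 ± 10.5 FPKM (mean ± SD, n = 3 each). FPKM are fragments scaled to gene length and library size, so levels of different genes can be set side by side. Markers of other blood cells were detected as well, and some differed between the groups. Of 6 tested markers of B and plasma cells, 4 were lower with haloperidol (Cd79a, Cd79b, Ighm and Vpreb1). The remaining tested markers, Igkc and Igj, had higher means with haloperidol, but their groups overlapped and neither passed the test. Igkc was at 47.6, 1.43 and 22.7 FPKM in DMSO and at 47.1, 52.6 and 154 FPKM with haloperidol. Igj had means of 2.92 and 3.93 FPKM. The summed level of the list, Igkc and Igj included, was 281 to 369 FPKM in DMSO and 172 to 277 FPKM with haloperidol. Pax5, which defines B cells, did not exceed 0.0336 FPKM in any library. Of 6 tested markers of monocytes, macrophages and dendritic cells, Cd68 was higher and Cd74, H2-Aa and H2-Ab1 were lower, with sums of 244 to 294 and 192 to 200 FPKM. Among markers of endothelial and stromal cells, 1 of 5 (Pdgfrb) was higher and 1 (Emcn) lower, with sums of 45.1 to 48.3 and 49.1 to 50.04 FPKM, and Cdh5, which defines endothelium, stayed at or below 0.0563 FPKM. None of 8 erythroid, 7 neutrophil or 3 T and NK cell markers passed the test. Their summed ranges were 3595 to 4763 and 4162 to 5497 FPKM for the erythroid list, 163 to 276 and 168 to 298 FPKM for the neutrophil list, and 316 to 338 and 277 to 325 FPKM for the T and NK list, in which Cd8a was at 0 in all 6 libraries. Most of the T and NK sum was Nkg7, at 318 ± 11.4 and 296 ± 22.6 FPKM. Cd3d, Cd3e and Cd3g did not exceed 0.351 FPKM in any library. The part of these cells in the results was not tested. In RNA from sorted populations, fewer cells of a type and less RNA per cell cannot be told apart.

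Translation begins when eIF2, a GTPase of alpha, beta and gamma subunits, brings the initiator tRNA to the small ribosomal subunit, helped by eIF1, eIF1A, eIF3 and eIF5. The eIF4F complex (the cap-binding protein eIF4E, the helicase eIF4A and the scaffold eIF4G) recruits the mRNA. eIF2B recharges eIF2 with GTP, and phosphorylation of the alpha subunit of eIF2 turns eIF2 into an inhibitor of eIF2B. eIF4E is held back by the 4E-binding proteins, which MTOR complex 1 switches off. During elongation eEF1A delivers aminoacyl-tRNAs and eEF2 moves the ribosome forward, and eEF2 is inhibited by its own kinase, eEF2K. Haematopoietic stem cells are known for a low rate of protein synthesis that has to be kept within narrow limits. The mRNAs of many translation factors and ribosomal proteins begin with a C followed by a run of C and T (U in the RNA), the TOP element through which MTOR controls their translation. The data here are of transcript levels and do not measure synthesis of proteins.

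Windows of 50 bases around the annotated start of transcription, 30 before and 20 after it, were searched for runs of C and T, whether or not they lie where a TOP element would. RefSeq promoters of the build GRCm38.p6 matched 46 of the 60 genes. The windows of 8 genes follow, read 5′ to 3′ on the strand of the gene, with the longest run of C and T in capitals. They are the eIF2 subunits, whose changes differed in direction, and the 4 genes of eIF2B and eIF3 with a run of at least 10 bases.
Eif2s1, chr12:78862042-78862091, plus strand: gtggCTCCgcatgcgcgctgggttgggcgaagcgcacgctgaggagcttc
Eif2s2, chr2:154892887-154892936, minus strand: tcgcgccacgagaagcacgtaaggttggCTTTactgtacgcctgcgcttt
Eif2s3x, chrX:94212632-94212681, minus strand: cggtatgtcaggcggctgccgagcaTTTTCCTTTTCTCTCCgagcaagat
Eif2s3y, chrY:1010565-1010614, plus strand: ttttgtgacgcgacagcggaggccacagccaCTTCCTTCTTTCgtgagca
Eif2b5, chr16:20498787-20498836, plus strand: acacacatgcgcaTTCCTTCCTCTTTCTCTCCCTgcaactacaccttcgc
Eif3f, chr7:108934385-108934434, plus strand: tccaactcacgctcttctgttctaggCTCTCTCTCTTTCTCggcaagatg
Eif3l, chr15:79075193-79075242, plus strand: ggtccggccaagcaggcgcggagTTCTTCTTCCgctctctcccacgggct
Eif3m, chr2:105017008-105017057, minus strand: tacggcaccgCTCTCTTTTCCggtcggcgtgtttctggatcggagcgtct
The longest runs were 21 bases in Eif2b5, 16 in Eif2s3x, 15 in Eif3f, 12 in Eif2s3y, 11 in Eif3m and 10 in Eif3l, while Eif2s1 and Eif2s2 had at most 4. The run lies across the start in Eif2b5, Eif2s3x, Eif3f and Eif3l, after it in Eif2s3y, and wholly before it, outside the transcript, in Eif3m.

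At the level of the whole family, more factor genes were higher than lower after haloperidol, by small amounts. Of the 60 genes, 56 had a mean of at least 1 FPKM and were tested with limma on log2(FPKM + 1), with Benjamini-Hochberg adjustment over all 11436 tested genes and a threshold of 0.05. Higher levels were called for 14 genes, which is 25% of the 56, where 11.5% of all tested genes were called higher. Lower levels were called for 2 genes, or 3.57%, where 13% of all tested genes were called lower. The median log2 fold change was 0.075 over the 56 genes and 0.0022 over all tested genes, and 73.2% of the 56 lay above 0 against 50.4% of all. All 3 haloperidol libraries exceeded all 3 DMSO libraries for 20 genes (35.7%), where 21% of all tested genes did so. They lay below all DMSO libraries for 6 genes (10.7%), where 22.1% of all tested genes did so. These shares were not matched for level. The median was 54.6 FPKM over the 60 genes and 9.88 FPKM over all tested genes, and small changes can be easier to call in abundant genes.

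The changes were small in size. Of the 56 ratios of group means, 55 were within 1.5-fold in either direction, and the exception was Eif5a2. The 14 genes that rose did so by 1.14-fold to 1.77-fold, and adjusted p-values of the 16 called genes ran from 0.00336 to 0.0493 (limma). The number of genes called higher depended on single libraries, since it was 7 without DMSO replicate 2 and 9 without haloperidol replicate 1, where 7.14% and 7.55% of all tested genes were called higher. Eif2s3x, Eif3b, Eif3c, Eif4h and Eef2k were called under all 14 alternative settings. Together the 60 genes took 1.88%, 1.84% and 1.81% of the reads in DMSO replicates 1 to 3, and 1.95%, 1.95% and 1.97% of those in haloperidol replicates 1 to 3, so the shares of the groups did not overlap.

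**Figure D1:**
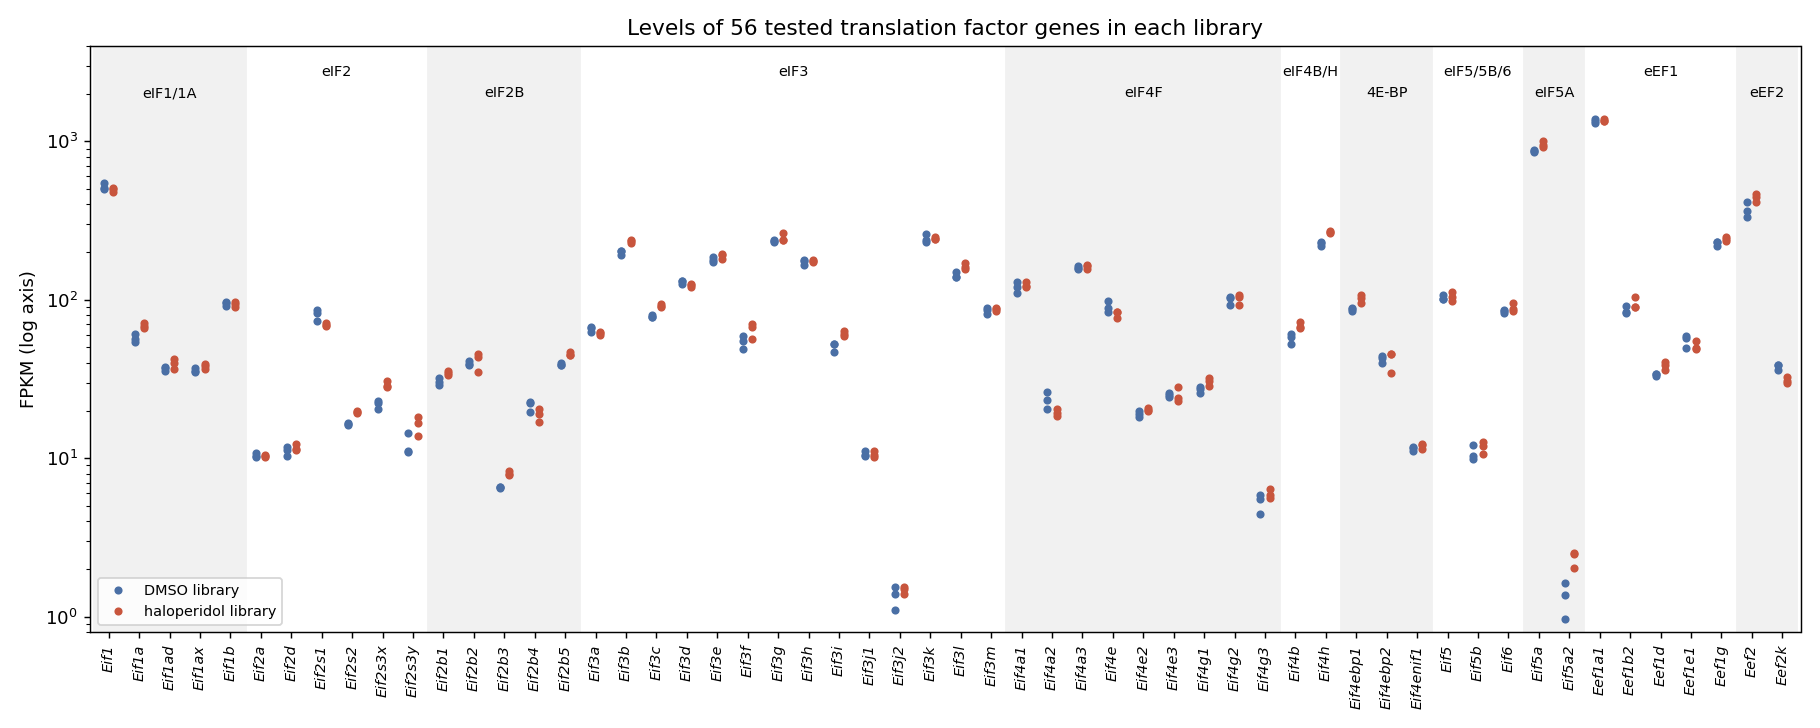
Level of each of the 56 tested genes in FPKM (log axis) by factor complex, with 1 point per library, blue for DMSO and red for haloperidol. Libraries run from 0.966 FPKM for Eif5a2 to 1385 FPKM for Eef1a1, both in DMSO replicate 1, and the distance between groups is small beside the distance between genes.

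The factors are abundant transcripts in these cells. The median level over the 60 genes was 54.6 FPKM, against 9.88 FPKM over all tested genes. A mean of 100 FPKM or more was reached by 17 genes, 35 lay between 10 and 100 FPKM, 4 between 1 and 10 FPKM, and 4 below 1 FPKM. Those 4 were not tested. Eef1a2, the eEF1A copy known from muscle and neurons, the eIF4E copy Eif4e1b, known from the germ line, and Eif2c5 had 0 reads in all 6 libraries. Eif4ebp3 had 0 to 2 reads per library (0 to 0.302 FPKM).

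**Figure D2:**
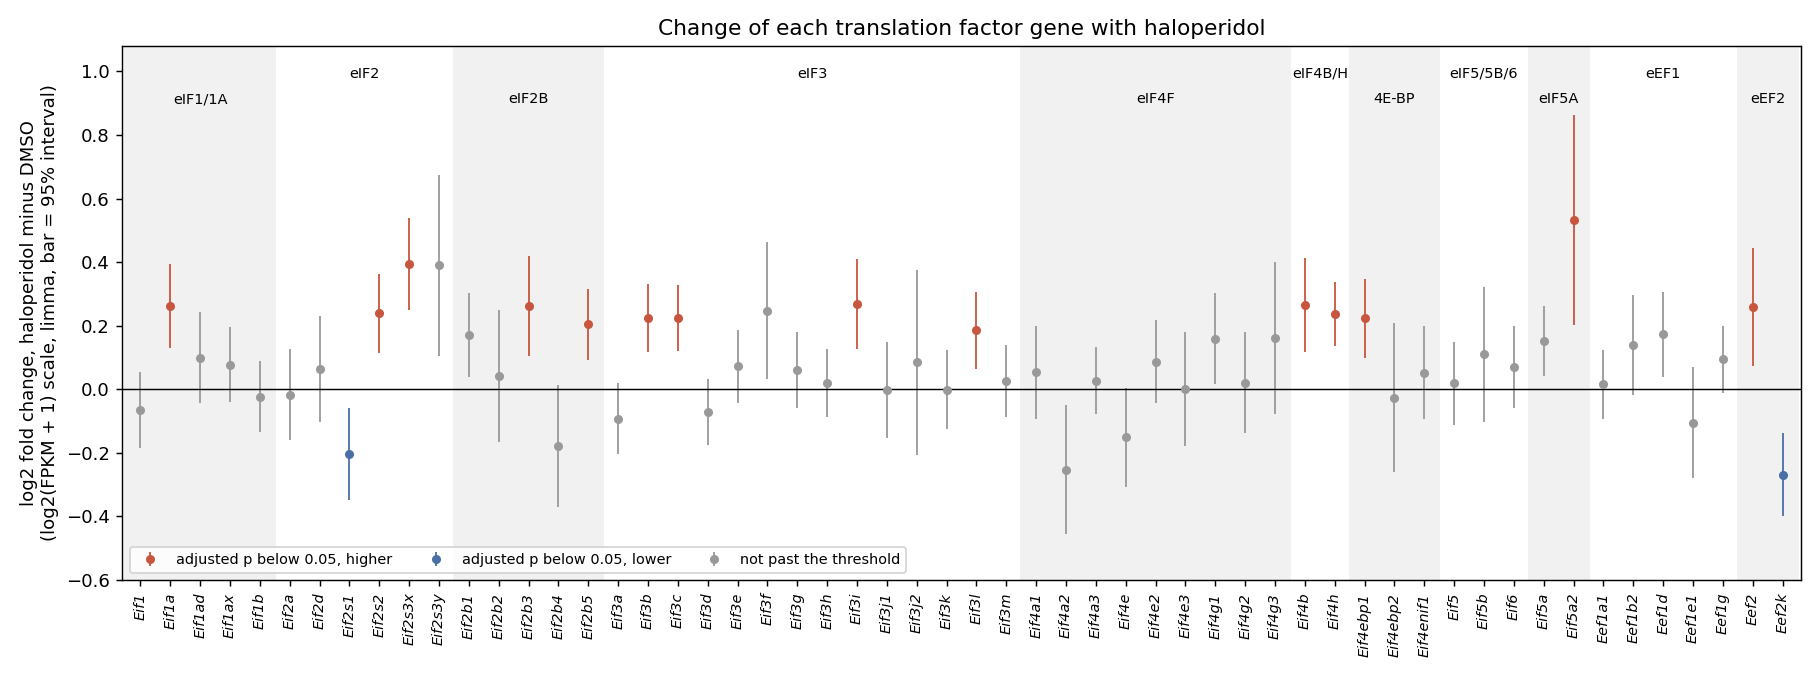
Log2 fold change of each of the 56 genes (haloperidol minus DMSO, log2(FPKM + 1) scale) with its 95% interval from limma, red for the 14 called higher, blue for the 2 called lower and grey for the 40 not called. The eIF2 subunits go in both directions, eIF4F has no called gene, and Eef2 and Eef2k lie on opposite sides of 0.

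Subunits of eIF2 itself moved in opposite directions. The genes of the beta and X-linked gamma subunits rose and that of the alpha subunit fell, so that 2 of the 6 genes in this group were called higher and 1 lower. Eif2s3x encodes the gamma subunit, which binds GTP and the initiator tRNA (chromosome X, 94188707 to 94212862, GRCm38). It was at 22.9, 22.3 and 20.5 FPKM in the DMSO libraries and at 28.6, 30.6 and 28.1 FPKM in the haloperidol libraries. Every haloperidol library was above every DMSO library, and the mean rose 1.33-fold (log2 fold change 0.39, SE 0.06, adjusted p = 0.00336, limma). Its copy on the Y chromosome, Eif2s3y (1010543 to 1028847), was detected in all 6 libraries. It was at 11.0, 11.1 and 14.4 FPKM in DMSO and at 16.7, 18.2 and 13.7 FPKM with haloperidol, so that the groups overlapped through DMSO replicate 3 and haloperidol replicate 3. Its means also differed 1.33-fold, but the change missed the threshold (log2 fold change 0.39, SE 0.12, adjusted p = 0.0514, limma). It passed without DMSO replicate 3 (0.0235) or haloperidol replicate 3 (0.0271), with upper quartile scaling (0.0366), quantile normalization (0.0448), a robust prior (0.0474) and limma-voom on reads (0.00978), which is 6 of 14 settings. Over the other settings the adjusted p was up to 0.152.

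Eif2s2, the beta subunit (chromosome 2, 154871410 to 154892935), was at 16.6, 16.2 and 16.5 FPKM in DMSO and at 19.2, 19.6 and 19.9 FPKM with haloperidol. The libraries within a group lay close together, and the mean rose 1.19-fold (log2 fold change 0.24, SE 0.05, adjusted p = 0.0147, limma). The call ended without DMSO replicate 2 (adjusted p = 0.0569). Eif2s1, the alpha subunit whose phosphorylation limits initiation under stress (chromosome 12, 78861819 to 78887010), was the most abundant of the group. It was at 73.5, 82.8 and 86.0 FPKM in DMSO and at 68.2, 71.4 and 69.8 FPKM with haloperidol. All haloperidol libraries were below all DMSO libraries, and the mean fell to 0.865 of the DMSO mean (log2 fold change -0.20, SE 0.06, adjusted p = 0.0483, limma). This call ended once low genes were left in the test (adjusted p = 0.102) and without DMSO replicate 2 (0.142) or 3 (0.139) or haloperidol replicate 1 (0.129), 2 (0.0806) or 3 (0.0953).

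As a measure chosen after the values were seen, and so without a test, the ratio of the alpha transcript to the sum of both gamma transcripts was 2.17, 2.48 and 2.46 in the DMSO libraries. It was 1.504, 1.465 and 1.669 in the haloperidol libraries. The groups could not overlap, since Eif2s1 was lower and the gamma sum higher in every haloperidol library. That sum was 33.4 to 34.9 FPKM in DMSO and 41.8 to 48.8 FPKM with haloperidol. The mean ratios were 2.37 ± 0.176 and 1.55 ± 0.109 (SD, n = 3 each). The ratio of the beta transcript to the same sum overlapped between the groups, at 0.490, 0.484 and 0.474 in DMSO and at 0.424, 0.403 and 0.475 with haloperidol. Eif2a and Eif2d, which can place an initiator or other tRNA on the ribosome without eIF2, were at 10.5 ± 0.286 and 11.1 ± 0.716 FPKM in DMSO and at 10.3 ± 0.206 and 11.6 ± 0.591 FPKM with haloperidol (adjusted p = 0.869 and 0.557, limma).

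Among the 5 subunits of eIF2B, the exchange factor of eIF2, those of the catalytic part rose: 2 were called higher and none lower. Eif2b5 encodes the epsilon subunit, which holds the catalytic site (chromosome 16, 20498817 to 20509323). It was at 38.5, 40.2 and 38.9 FPKM in DMSO and at 44.8, 46.5 and 44.6 FPKM with haloperidol. The groups did not overlap, and the mean rose 1.16-fold (log2 fold change 0.20, SE 0.05, adjusted p = 0.0179, limma). Eif2b3, the gamma subunit and partner of epsilon (chromosome 4, 117019402 to 117087306), was at 6.47, 6.62 and 6.55 FPKM in DMSO and at 8.33, 7.94 and 7.89 FPKM with haloperidol. It too was higher in every haloperidol library, by 1.23-fold in the mean (log2 fold change 0.26, SE 0.07, adjusted p = 0.0253, limma). Leaving out 1 library ended the call of Eif2b5 for DMSO replicate 1 (adjusted p = 0.0521) or 3 (0.0506) or haloperidol replicate 2 (0.0635). For Eif2b3 it did so for every library but haloperidol replicate 3 (0.061 to 0.0813).

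The other subunits sense the phosphorylated alpha subunit of eIF2, and none of them passed the test. Eif2b1, the alpha subunit, was at 29.0, 30.5 and 32.2 FPKM in DMSO and at 34.5, 33.4 and 35.7 FPKM with haloperidol (adjusted p = 0.0631, limma), with no overlap. It passed with upper quartile scaling (0.0374) and quantile normalization (0.0327). Eif2b2, the beta subunit, was at 39.0, 41.3 and 39.1 FPKM in DMSO and at 35.0, 43.3 and 45.3 FPKM with haloperidol, a spread that enclosed the DMSO values (adjusted p = 0.772). Eif2b4, the delta subunit, had means of 21.5 ± 1.65 and 18.9 ± 1.77 FPKM (adjusted p = 0.157).

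Next in the pathway, eIF1 and eIF1A keep the scanning ribosome open until it meets a start codon, and 1 of their 5 genes rose. Eif1a was at 54.2, 56.2 and 61.2 FPKM in DMSO and at 66.5, 68.6 and 71.0 FPKM with haloperidol. The groups were separate and the mean rose 1.20-fold (log2 fold change 0.26, SE 0.06, adjusted p = 0.0136, limma). The call ended without DMSO replicate 2 (adjusted p = 0.0517). Its X-linked copy Eif1ax had means of 35.9 ± 0.853 and 38.0 ± 1.22 FPKM and did not pass (adjusted p = 0.305). Eif1, the most abundant initiation factor gene of this group, was at 549, 498 and 509 FPKM in DMSO and at 501, 478 and 506 FPKM with haloperidol. These groups overlapped, and the 95% interval of the log2 fold change was -0.18 to 0.05 (adjusted p = 0.396, limma). Eif1b and Eif1ad, at 94.7 and 36.7 FPKM in DMSO, had adjusted p-values of 0.767 and 0.284.

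The 14 genes of eIF3, the scaffold of the initiation complex, split between 4 that rose and 10 that did not pass the test, and none fell. Eif3b, the scaffold of the b, g and i module (chromosome 5, 140419328 to 140443360), was at 192, 204 and 203 FPKM in DMSO and at 227, 239 and 235 FPKM with haloperidol. Eif3i, a propeller-shaped subunit bound to it (chromosome 4, 129591960 to 129600648), was at 52.3, 52.8 and 46.6 FPKM in DMSO and at 63.4, 58.8 and 61.0 FPKM with haloperidol. Neither gene had overlapping groups, and the means rose 1.17-fold and 1.21-fold. The log2 fold changes were 0.22 (SE 0.05, adjusted p = 0.0104) for Eif3b and 0.27 (SE 0.06, adjusted p = 0.0155) for Eif3i by limma. Eif3g, the RNA-binding member of the same module, had means of 235 ± 3.05 and 246 ± 14.6 FPKM (adjusted p = 0.424). Without haloperidol replicate 1 the adjusted p of Eif3i was 0.0555.

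Of the 8 genes of the octamer that forms the core of eIF3 (a, c, e, f, h, k, l and m), 2 rose. Eif3c, which contacts eIF1 and eIF5 (chromosome 7, 126546455 to 126566411), was at 80.0, 77.6 and 77.4 FPKM in DMSO and at 90.9, 89.5 and 94.6 FPKM with haloperidol. The lowest haloperidol library was above the highest DMSO library, and the mean rose 1.17-fold (log2 fold change 0.22, SE 0.05, adjusted p = 0.00982, limma). Eif3l, a peripheral subunit (chromosome 15, 79075179 to 79094405), was at 140.0, 139 and 149 FPKM in DMSO and at 160.0, 156 and 171 FPKM with haloperidol. It rose 1.14-fold (log2 fold change 0.19, SE 0.05, adjusted p = 0.0351, limma), and the groups were separate. That call ended with low genes left in (adjusted p = 0.0714) and without DMSO replicate 1 (0.0933) or 2 (0.117) or haloperidol replicate 1 (0.0741) or 3 (0.0868).

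Eif3k, the partner of Eif3l and with Eif3g the most abundant eIF3 gene, was at 232, 239 and 261 FPKM in DMSO and at 240.3, 250 and 241 FPKM with haloperidol, with equal means of 244 FPKM (adjusted p = 0.991, limma). The 2 partners therefore did not share a call. Eif3f was at 59.4, 54.7 and 48.8 FPKM in DMSO and at 67.4, 56.7 and 69.9 FPKM with haloperidol, overlapping through haloperidol replicate 2 (log2 fold change 0.25, SE 0.09, adjusted p = 0.0893). Its adjusted p was 0.0302 without that library and 0.0264 with limma-voom. Eif3a, the largest subunit, and Eif3d, which can bind the cap of selected mRNAs, were lower in every haloperidol library, with means of 65.4 and 61.3 FPKM and of 130 and 123 FPKM, but did not pass (adjusted p = 0.211 and 0.288). For Eif3d, 43.3% of the exon bases lie opposite exons of Gm17638, and these libraries do not mark strand. Eif3e, Eif3h, Eif3m and Eif3j1 differed by at most 1.05-fold between the group means, with adjusted p-values of 0.33 to 0.982. Eif3j2, a near copy of Eif3j1 whose reads the counting could split, was at 1.34 and 1.47 FPKM.

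The cap-binding complex itself held no called gene: of the 9 tested genes of eIF4F and its paralogs, 0 passed in limma. Eif4e, the cap-binding protein and target of the 4E-binding proteins, was at 83.4, 89.3 and 98.7 FPKM in DMSO and at 77.2, 83.2 and 83.2 FPKM with haloperidol. The haloperidol libraries lay below the DMSO libraries by a narrow margin, and the log2 fold change was -0.15 (SE 0.07, adjusted p = 0.14, limma). Eif4g1, the main scaffold, was at 28.3, 27.2 and 25.9 FPKM in DMSO and at 30.6, 32.1 and 28.6 FPKM with haloperidol. Its libraries lay the other way round, all haloperidol above all DMSO, and the log2 fold change was 0.16 (SE 0.06, adjusted p = 0.101, and 0.0483 with limma-voom). Eif4a1, the main helicase, was at 119.9, 110.3 and 129 FPKM in DMSO and at 129, 120.5 and 123 FPKM with haloperidol. These overlapped, with a 95% interval of the log2 fold change from -0.09 to 0.20 (adjusted p = 0.587). A pseudogene copy of Eif4a1 was listed at 22.7 to 32.3 FPKM, so reads of the 2 may have been split.

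The helicase copy Eif4a2 was at 26.3, 20.5 and 23.2 FPKM in DMSO and at 19.3, 18.4 and 20.4 FPKM with haloperidol, lower in every library but not past the threshold (log2 fold change -0.25, SE 0.09, adjusted p = 0.0723, limma). It passed as lower without DMSO replicate 2 (adjusted p = 0.0318), with libraries brought to a common sum (0.0494) and with limma-voom on reads (0.0208). Eif4a3, a helicase of the exon junction complex and the most abundant gene of this group, was at 156, 159 and 163 FPKM in DMSO and at 157, 166 and 164 FPKM with haloperidol (adjusted p = 0.705). Eif4e2, a cap-binding repressor, had all haloperidol libraries above all DMSO libraries but means of only 19.0 ± 0.704 and 20.3 ± 0.416 FPKM (adjusted p = 0.298). The scaffold copies Eif4g2 and Eif4g3 and the cap-binding Eif4e3 had adjusted p-values of 0.302 to 0.999. At an unadjusted p below 0.05, Eif4a2 and Eif4g1 were the eIF4F genes that differed.

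The cofactors that stimulate eIF4A both rose. Eif4h (chromosome 5, 134619721 to 134639490) was at 232, 228 and 219 FPKM in DMSO and at 268, 263 and 269.9 FPKM with haloperidol. Eif4b, a substrate of S6 kinase (chromosome 15, 102073773 to 102097173), was at 61.2, 57.8 and 52.9 FPKM in DMSO and at 72.9, 66.7 and 67.6 FPKM with haloperidol. For both, the groups did not overlap. The mean of Eif4h rose 1.179-fold (log2 fold change 0.24, SE 0.04, adjusted p = 0.00624, limma). That of Eif4b rose 1.20-fold (log2 fold change 0.27, SE 0.07, adjusted p = 0.0199). The call of Eif4b ended with low genes left in (adjusted p = 0.0526) and without DMSO replicate 2 (0.0562) or 3 (0.057) or haloperidol replicate 1 (0.0694).

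Of the inhibitors that hold eIF4E, Eif4ebp1 rose. It was at 88.2, 84.6 and 87.6 FPKM in DMSO and at 103, 95.2 and 107 FPKM with haloperidol (chromosome 8, 27260329 to 27276674). The groups were separate and the mean rose 1.17-fold (log2 fold change 0.22, SE 0.05, adjusted p = 0.0199, limma). The call ended without DMSO replicate 2 (adjusted p = 0.0749) or haloperidol replicate 1 (0.0633) or 3 (0.0534). Eif4ebp2, the second inhibitor, was at 44.3, 42.7 and 39.9 FPKM in DMSO and at 45.6, 45.2 and 34.6 FPKM with haloperidol. Here haloperidol replicate 3 alone lay under the DMSO range, and the log2 fold change was -0.03 with a 95% interval of -0.26 to 0.21 (adjusted p = 0.872, limma). Eif4enif1, which carries eIF4E into the nucleus and binds it in place of eIF4G, had means of 11.5 ± 0.384 and 12.0 ± 0.461 FPKM (adjusted p = 0.597).

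The factors of subunit joining showed no call among 3 genes. Eif5, which makes eIF2 hydrolyse its GTP, was at 100.5, 102 and 108 FPKM in DMSO and at 98.9, 104 and 111 FPKM with haloperidol (adjusted p = 0.845, limma). Eif6, which keeps the large subunit from joining too early, was at 86.7, 84.6 and 82.6 FPKM in DMSO and at 84.7, 87.0 and 95.3 FPKM with haloperidol (adjusted p = 0.396). Both overlapped between the groups. Eif5b, the joining GTPase, had means of 10.8 and 11.7 FPKM (adjusted p = 0.424).

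Eif5a encodes the hypusine-bearing factor that helps the ribosome past difficult peptide bonds, and it was second in level only to Eef1a1 among these genes. It was at 865, 853 and 875 FPKM in DMSO and at 924, 954 and 1004 FPKM with haloperidol. Every haloperidol library was higher, but the 1.11-fold difference missed the threshold (log2 fold change 0.15, SE 0.05, adjusted p = 0.0509, limma). It passed with a pseudocount of 0.1 (0.0433), a robust prior (0.0395) and limma-voom on reads (0.0136). Its paralog Eif5a2 (chromosome 3, 28781276 to 28798846) was near the lower limit of the test, at 0.966, 1.64 and 1.38 FPKM in DMSO and at 2.03, 2.50 and 2.52 FPKM with haloperidol. The DMSO libraries had 43 to 71 reads of it and the haloperidol libraries 87 to 112 reads. The groups did not overlap and the mean rose 1.77-fold (log2 fold change 0.53, SE 0.14, adjusted p = 0.0291, limma). The fold change was 0.80 with a pseudocount of 0.1 and 0.85 with limma-voom. Leaving out DMSO replicate 1 (adjusted p = 0.0724) or 3 (0.0632) or haloperidol replicate 2 (0.085) or 3 (0.0842), or leaving low genes in (0.0769), ended the call.

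**Figure D3:**
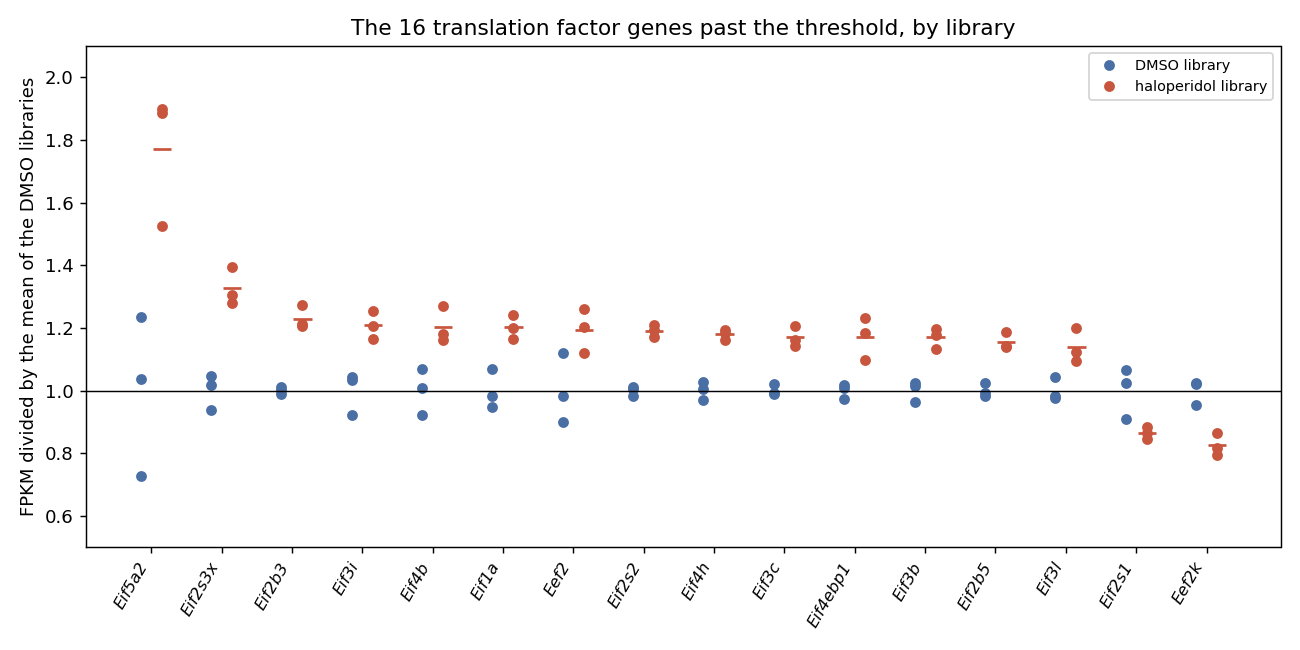
Level of each of the 16 called genes in each library, divided by the mean of the 3 DMSO libraries (1 point per library, bars for the haloperidol mean). Eif5a2 stands at 1.77 and Eif2s3x at 1.33, the other 12 higher genes lie between 1.14 and 1.23, and Eif2s1 and Eef2k lie at 0.865 and 0.826.

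In elongation, tRNA delivery and translocation differed in what passed the test, a difference that was not itself tested. None of the 5 tested genes of eEF1 was called by limma, and 1 (Eef1d) had an unadjusted p below 0.05. Eef1a1, which delivers aminoacyl-tRNA and was the most abundant of all 60 genes (chromosome 9, 78478449 to 78489151), was at 1385, 1345 and 1297 FPKM in DMSO and at 1382, 1340 and 1346 FPKM with haloperidol. The groups overlapped widely, with a 95% interval of the log2 fold change from -0.09 to 0.12 (adjusted p = 0.845). Processed copies of Eef1a1 are common in the genome, so its level is uncertain to the extent that reads were shared with them. The exchange factor of eEF1A has subunits encoded by Eef1b2, Eef1d and Eef1g. Eef1d was at 33.2, 34.1 and 34.2 FPKM in DMSO and at 35.8, 38.7 and 40.5 FPKM with haloperidol, separate but not past the threshold (log2 fold change 0.17, SE 0.06, adjusted p = 0.0632, limma). It passed with upper quartile scaling (0.0496), quantile normalization (0.0357), limma-voom (0.0292) and without haloperidol replicate 1 (0.0418). Eef1g was also higher in every haloperidol library, with means of 227 ± 5.90 and 242 ± 7.55 FPKM (adjusted p = 0.171). Eef1b2 had means of 85.7 ± 4.82 and 94.7 ± 7.85 FPKM (adjusted p = 0.177), and Eef1e1, a component of the multi-tRNA synthetase complex, 55.4 ± 4.94 and 51.4 ± 3.31 FPKM (adjusted p = 0.351).

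For translocation, the gene of the factor rose and the gene of its inhibitory kinase fell. Eef2 (chromosome 10, 81176631 to 81182498) was at 414.1, 364 and 333 FPKM in DMSO and at 445, 414.5 and 466 FPKM with haloperidol. The groups all but touched, at DMSO replicate 1 and haloperidol replicate 2, and the mean rose 1.19-fold (log2 fold change 0.26, SE 0.08, adjusted p = 0.0493, limma). The call ended with low genes left in (adjusted p = 0.143), with upper quartile scaling (0.0642) and without DMSO replicate 2 (0.129) or 3 (0.135) or haloperidol replicate 1 (0.118), 2 (0.0516) or 3 (0.13). Eef2k, the kinase that phosphorylates and stops eEF2 (chromosome 7, 120842831 to 120907450), was at 35.9, 38.5 and 38.6 FPKM in DMSO and at 30.8, 32.6 and 29.9 FPKM with haloperidol. Its groups did not overlap, and the mean fell to 0.826 of the DMSO mean (log2 fold change -0.27, SE 0.06, adjusted p = 0.0114, limma). Exons of another gene on the opposite strand cover 1.36% of its exon bases, and no other called gene has such an overlap. The ratio of Eef2 to Eef2k, chosen after the values were seen and not tested, was 11.5, 9.45 and 8.62 in DMSO and 14.4, 12.7 and 15.6 with haloperidol. This ratio had to separate the groups, since each gene did so alone and in opposite directions.

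Genes outside the family that act on these factors were counted from lists. Of all tested genes, 11.5% were called higher and 13% lower, the shares to set beside the counts of each list. Of 8 genes that act on the alpha subunit of eIF2, 1 was called, and it was lower. They are those of 4 kinases, of the regulators Gcn1l1 and Impact of the kinase Eif2ak4, and of 2 phosphatase subunits. Ppp1r15a (GADD34) brings a phosphatase to phosphorylated eIF2 and is itself induced by stress. It was at 225, 213 and 219 FPKM in DMSO and at 128, 131 and 131 FPKM with haloperidol, and the mean fell to 0.594 of the DMSO mean (log2 fold change -0.75, SE 0.04, adjusted p = 4.18e-05, limma). On the log2(FPKM + 1) scale this was a larger change than that of any factor gene tested. As a ratio of group means, the 1.77-fold rise of Eif5a2 was the larger change. The call of Ppp1r15a held in all 14 alternative settings. Its constitutive relative Ppp1r15b had means of 12.6 and 13.5 FPKM (adjusted p = 0.317). The kinases, which sense haem lack (Eif2ak1), double-stranded RNA (Eif2ak2), endoplasmic reticulum stress (Eif2ak3) and amino acid lack (Eif2ak4), had adjusted p-values of 0.54, 0.995, 0.382 and 0.965. Those of Gcn1l1, an activator of Eif2ak4, and Impact, an inhibitor, were 0.508 and 0.683.

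Among 15 tested genes of MTOR complex 1, its regulators and the S6 kinases, 4 rose and 1 fell. Deptor, an inhibitor that binds MTOR, was at 5.62, 5.50 and 5.36 FPKM in DMSO and at 9.72, 8.81 and 10.2 FPKM with haloperidol (log2 fold change 0.70, SE 0.08, adjusted p = 6.04e-04, limma). Rheb, the GTPase that activates the complex, was at 60.4, 54.4 and 59.1 FPKM in DMSO and at 43.7, 41.6 and 41.0 FPKM with haloperidol (log2 fold change -0.45, SE 0.06, adjusted p = 0.00113). Both had separate groups. Ddit4 (REDD1), which restrains the complex under stress and glucocorticoids, rose from 13.1 ± 1.43 to 21.1 ± 2.29 FPKM (adjusted p = 0.00258), and the stress-induced inhibitor Sesn2 from 6.74 ± 0.212 to 8.88 ± 1.09 FPKM (adjusted p = 0.026). The S6 kinase gene Rps6kb2, named after its values were seen because it completes the count, rose from 10.2 to 11.9 FPKM (adjusted p = 0.0408). The calls of Deptor, Ddit4 and Rheb held in all 14 alternative settings. That of Sesn2 ended when any library but haloperidol replicate 2 was left out (adjusted p up to 0.0784), and that of Rps6kb2 when any library was (up to 0.108). Sesn2 was called in 8 and Rps6kb2 in 4 of 14 settings. Mtor itself and Rptor, its scaffold partner, did not pass (adjusted p = 0.263 and 0.193). Nor did Sesn1, more abundant than Sesn2 at 61.1 FPKM in DMSO and 59.8 FPKM with haloperidol (adjusted p = 0.703, limma). Sesn3 had means of 3.85 and 3.29 FPKM (adjusted p = 0.332). Akt1s1, Tsc1, Tsc2, Mlst8, Tbc1d7 and Rps6kb1 did not pass either (adjusted p = 0.115 to 0.770).

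**Figure D4:**
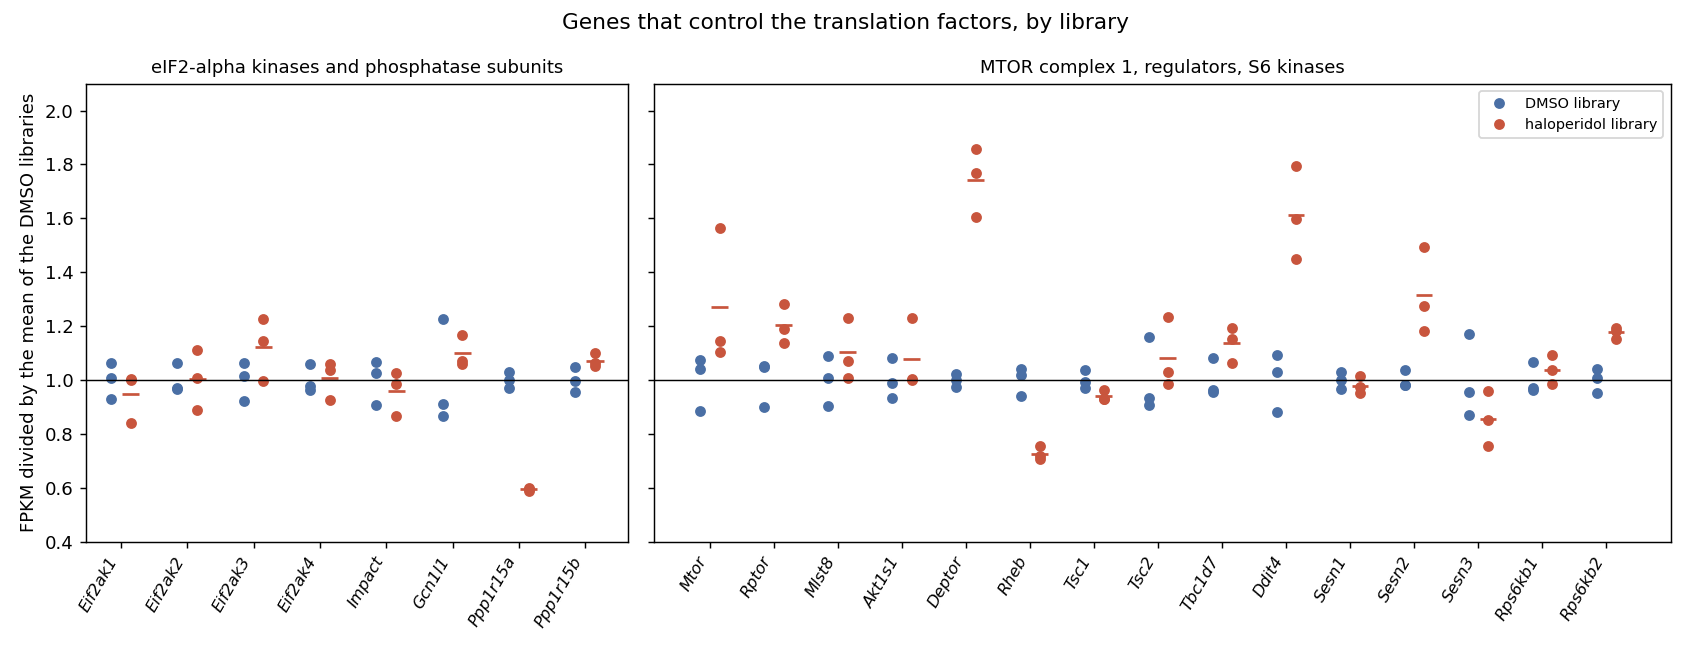
Levels in each library, divided by the mean of the 3 DMSO libraries, of 8 genes acting on the eIF2 alpha subunit (left) and 15 genes of MTOR complex 1, its regulators and S6 kinases (right), with bars for the haloperidol mean. Ppp1r15a lies at 0.594 and Rheb at 0.726, while Deptor reaches 1.74 and Ddit4 1.61.

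Of 16 genes for other initiation cofactors, 3 rose and 1 fell. Mknk2, a kinase of eIF4E, rose from 52.5 ± 4.80 to 64.7 ± 3.13 FPKM (adjusted p = 0.0186, limma). Pabpc1, the poly(A)-binding protein, rose from 81.4 ± 14.6 to 107 ± 9.64 FPKM with overlapping libraries (adjusted p = 0.043). Its inhibitors went in opposite directions: Paip2b rose from 2.41 ± 0.593 to 3.71 ± 0.418 FPKM (adjusted p = 0.0433), and the more abundant Paip2 fell from 262 ± 7.95 to 236 ± 5.88 FPKM (adjusted p = 0.041). Mknk2 (adjusted p up to 0.0654) and Pabpc1 (up to 0.12) lost their calls without DMSO replicate 2 or 3 or haloperidol replicate 1 or 3. Pabpc1 also lost its call with low genes left in (0.131), upper quartile scaling (0.0515), quantile normalization (0.0528) and a robust prior (0.0793), so that it was called in 6 of 14 settings. Paip2b (up to 0.131) lost its call without any library but DMSO replicate 1, and Paip2 (up to 0.118) without any but haloperidol replicate 3. Upper quartile scaling ended the call of Paip2 too (0.0881), and leaving low genes in ended those of Mknk2 (0.0547), Paip2b (0.123) and Paip2 (0.0762). None of 9 enzymes that put hypusine on eIF5A or diphthamide on eEF2 was called by limma, with 1 (Dnajc24) at an unadjusted p below 0.05. Of 9 genes of termination, rescue and selenocysteine elongation, Eefsec, the selenocysteine elongation factor, rose (31.1 to 36.5 FPKM, adjusted p = 0.0342). Of 10 mitochondrial translation factors, Guf1 rose (4.72 to 6.27 FPKM, adjusted p = 0.025) and the ribosome recycling factor Mrrf fell (12.8 to 10.2 FPKM, adjusted p = 0.0138). The call of Mrrf held in all 14 alternative settings. Those of Eefsec (up to 0.11, any library but haloperidol replicate 1) and Guf1 (up to 0.0825, any but DMSO replicate 3 and haloperidol replicate 3) ended when 1 library was left out, and also with low genes left in (0.0639 and 0.0627).

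Of 10 genes outside the ribosomal proteins whose mRNAs are known to carry a TOP element, 6 rose and none fell, with a median log2 fold change of 0.19. Pabpc1 is in this list as well. Npm1, the nucleolar protein nucleophosmin, rose from 247 ± 4.30 to 284 ± 6.31 FPKM (adjusted p = 0.0127, limma). Fau, which encodes a small-subunit ribosomal protein fused to a ubiquitin-like part, rose from 178 ± 11.8 to 214 ± 8.22 FPKM (adjusted p = 0.0131), and Btf3, of the nascent-chain complex, from 211 ± 6.86 to 245 ± 12.6 FPKM (adjusted p = 0.0195). Npm1 and Fau were called in all 14 alternative settings, while Btf3 was not without DMSO replicate 2 (0.066) or 3 (0.0617) or haloperidol replicate 1 (0.0505), nor with low genes left in (0.0516). Naca, the partner of Btf3, had means of 47.3 and 48.6 FPKM (adjusted p = 0.701).

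The start-site windows can be set beside these calls as a description. A run of at least 10 C or T, a length chosen after the values were seen, was found in the window of 10 of the 44 tested factor genes that have one (22.7%) and of 11.7% of 8099 tested genes. The orders of C and T were free, and the strand of the gene alone was searched. The run lies across the start in 5 of the 10 (Eef1a1, Eif2b5, Eif2s3x, Eif3f and Eif3l), after it in Eif2s3y, and wholly before it in 4 (Eef2k, at 1 of its 3 annotated starts, Eif3m, Eif4e and Eif4enif1). Eif4e and Eif4enif1 also have other annotated starts without a run of that length. Of the 5 with a run across the start, Eif2b5, Eif2s3x and Eif3l were called higher, and Eef1a1 and Eif3f did not pass the test. Of the 4 with a run before it, Eef2k was called lower and the other 3 did not pass. Of the 34 tested genes without a run, 7 were called higher and 1 lower. The median log2 fold changes with and without a run were 0.12 and 0.06. The edge of the window cuts some runs: that of Eef2 has 6 bases in the window and 8 in all, and Eif3k reaches 10 only beyond the edge. The E-box CACGTG, read the same on both strands, was in the 300 promoter bases of 12 of these 44 genes (27.3%) and of 12.1% of tested genes. Of those 12, Eef2, Eif4h and Eif5a2 were called higher and Eef2k lower. Of the 32 tested genes without the E-box, 7 were called higher and 1 lower. The median log2 fold changes with and without it were 0.10 and 0.06.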

How the data were processed

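RNA was sequenced from 3 DMSO and 3 haloperidol libraries of mouse LSK cells. Per the labels' protocols, cells were sorted into lysis buffer and libraries were made with a SMART-Seq low-input kit and Nextera, which keep no strand. Per the submitters' processing notes, TopHat2 2.1.1 and HTSeq 0.6.1 were among the tools, with DESeq2 1.18.1, bcl2fastq 2.19.1.403 and the build mm10. Which annotation and counting options were used is not given in the sources at hand. FPKM values of 38926 genes were deposited by the authors. Whole reads were recovered from the steps of low FPKM for 100% of 20633 genes above 0 (within 0.001 reads), and the deposited scale equalled median-of-ratios size factors. Those reads served for depth and for the limma-voom alternative.

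In R 4.3.3, limma 3.58.1 was run on log2(FPKM + 1) (trended prior, two-sided, no covariate) for 11436 genes with a mean of at least 1 FPKM, adjusted by Benjamini-Hochberg at 0.05. The test was also tried on simulated data. The pseudocount shrinks fold changes of low genes, and group means with their SDs were taken on FPKM. Factor genes, complexes and lists were chosen with earlier results of these data known. Values in every library were given for the 15 genes set by name, the most abundant gene of each complex and all called genes. From other lists, up to 3 genes in each direction with the smallest p were named. Gene positions are from GENCODE M21 on GRCm38 and windows from RefSeq on GRCm38.p6. Proteins were not used here, nor were Eef2kmt and the eEF1A methyltransferases, which are not analysed here.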

Additional observations from a re-analysis of the deposited data

How the results depend on the processing

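Of 784 values of factor genes under 14 alternative settings, 684 kept their direction and side of the threshold, 43 lost a call, 21 gained one and 36 changed sign without a call. No called direction reversed. The number of factor genes called was 16 and ranged from 9 to 12 when 1 library was left out, with 7 to 11 higher and 1 to 2 lower. In those fits 7.14% to 8.63% of all tested genes were called higher and 8.72% to 10.8% lower. With low genes left in, 10 were higher and 1 lower, where 4.11% and 5.36% of all tested genes were. With limma-voom on reads 19 were higher and 3 lower, where 13.9% and 15.3% of all tested genes were. With libraries brought to a common sum 14 were higher and 3 lower, where 9.74% and 13.7% of all tested genes were. Scaling moved the median of all genes by at most 0.02 (log2). Whether the labels' replicate numbers pair the libraries is not stated. Same-numbered deviations had correlations of 0.00946, 0.055 and 0.0195, and 2 of 6 libraries correlated best with their own number. With 3 libraries per group these values cannot decide it. With the replicate block 12 were higher and 2 lower, where 10.6% and 11.8% of all tested genes were. The limma calls of Eef2 (adjusted p = 0.058) and Eif2b3 (0.054) ended there. The cause was not tested. Depth limits Eif5a2, which had as few as 43 reads in a library, and Eif3j2, which had as few as 24.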
